A study of Mus musculus with 6 samples.

Results

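Enteroendocrine cells without a detected Tph1 transcript were examined in single-cell RNA-seq of EpCAM-sorted mouse ileal crypts. A barcode was kept when it held at least 1000 UMIs, at least 500 genes and at most 20% mitochondrial UMIs. A kept cell was a member when at least 3 of 8 genes (Chga, Chgb, Neurod1, Cpe, Sct, Isl1, Fev and Rfx6) were detected, their sum reached 0.1% of its UMIs and Tph1 was at 0. These limits gave 250 members among 17104 kept cells, or 1.46%. Another 274 cells met the same limits with at least 1 Tph1 UMI, and 16580 kept cells did not meet them. The rule was applied to the measured counts, so the levels of these 9 genes are described and not tested.

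The study asked what loss of the formyl peptide receptor Fpr2 does to the ileal epithelium. The control group, Fpr2f/f, consisted of 3 libraries from C57BL/6J mice with floxed Fpr2 and no Cre, which the labels call wild type. The Fpr2VKO group consisted of 3 libraries from floxed mice that also carried Villin-Cre, which deletes the gene in intestinal epithelial cells and so in every epithelial lineage at once. Adult mice matched for sex and age were used. The study describes as many mice as libraries in each genotype, while the labels name no mouse, so each library was taken as a mouse. Exact permutation p-values rest on the library values, and edgeR p-values on a spread between libraries estimated in part over all genes.

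Enteroendocrine cells are rare hormone-releasing cells of the gut lining. They arise from crypt progenitors that transiently switch on the transcription factor Neurog3, and they then adopt fates marked by the peptides they store. Cells that express Tph1, the first enzyme of serotonin synthesis, are enterochromaffin cells, and the remainder make peptides such as ghrelin, GLP-1, GIP, cholecystokinin, neurotensin and somatostatin.

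The members numbered 61, 49 and 35 in Fpr2f/f libraries 1 to 3 and 38, 44 and 23 in Fpr2VKO libraries 1 to 3. Their summed depth was 312392 to 610699 UMIs per library, so that 3 counts correspond to 4.91 to 9.60 CPM (a gene's UMIs scaled to the UMI total of the same cells in that library). The whole libraries held 90142126 to 189516114 UMIs, and the mitochondrial limit removed 65.7% to 90.1% of barcodes that passed the other limits. Fpr2 was listed at 0 UMIs in every barcode of all 6 libraries, controls included, so no level can be given and the targeted gene gave no check of the genotype labels. A few barcodes were kept in more than 1 library, 6 of them in members, and in some pairs of libraries more were shared (23 against 4.54 for a random draw in 1 pair). With these barcodes removed, 1 gene still passed between genotypes in members, and the comparison with other kept cells kept 24 of its 28 genes.

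Of the 5 defining markers, 4 were well above their level in other kept cells. Chga encodes chromogranin A, a granule matrix protein. It stood at 517, 639 and 588 CPM in the Fpr2f/f members and at 535, 458 and 573 CPM in the Fpr2VKO members, against a mean of 6.92 CPM in other kept cells. Chgb, its relative, averaged 6182 CPM over the 6 libraries against 12.1 CPM, Cpe, which trims prohormone ends, 1424 against 1.19 CPM, and Isl1, a LIM homeodomain factor, 1070 against 0.87 CPM. The fifth marker, Neurod1, was, like Fpr2, listed at 0 UMIs in every barcode, so 7 genes could satisfy the rule. All 7 detectable genes were present in 55 members, and 36 members had exactly 3.

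At the limit, the 5 members with the lowest sums had 0.1005% to 0.111% of UMIs in the rule genes, and the 5 nearest cells outside had 0.0746% to 0.0990%. A further 66 cells without Tph1 reached the sum with only 2 of the genes. Of the 250 members, 229 were deep enough to expect at least 3 Tph1 UMIs at the rate of Tph1-positive cells, and 23 Tph1-positive cells were called from 1 UMI. The members had a median of 10236.5 UMIs against 13516 in Tph1-positive cells and 4816 in other kept cells.

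Some members also carried UMIs of other epithelial classes. Paneth markers reached 1% of UMIs in 11 members and goblet markers in 12, and no member reached 1% for enterocyte, tuft or lymphocyte markers. In 1 member of Fpr2VKO library 1 the Paneth share was 35.6%. Summed over the 10 Paneth markers, the members held 421 to 2197 CPM in Fpr2f/f and 1104 to 9888 CPM in Fpr2VKO, and over the 8 goblet markers 1281 to 11442 CPM and 563 to 1896 CPM. Both ranges overlapped between genotypes, and every marker of these lists had at least 1 UMI in members. A doublet score marked 8 members (3.2%), against 2.5% of kept cells, and these were retained.

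The hormone with the most UMIs, where it had at least 5, divided the members. Ghrl, the ghrelin precursor, led in 41 cells (16.4%, 95% Wilson interval 12.3% to 21.5%, counting error only). Gcg, the precursor of GLP-1 and glucagon, led in 33, Gip, the incretin GIP, in 30, and Cck, cholecystokinin, in 29. Tac1, the substance P precursor, led in 20, Nts, neurotensin, in 4, Sst, somatostatin, in 2 and Pyy, peptide YY, in 1. The other 90 members (36.0%, 30.3% to 42.1%) had no leading hormone, 89 because none of 12 hormones reached 5 UMIs and 1 because of a tie. Exactly 1 hormone reached 5 UMIs in 82 members, and 40, 26 and 13 members held 2, 3 and 4 hormones at 5 UMIs or more.

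**Figure D1:**
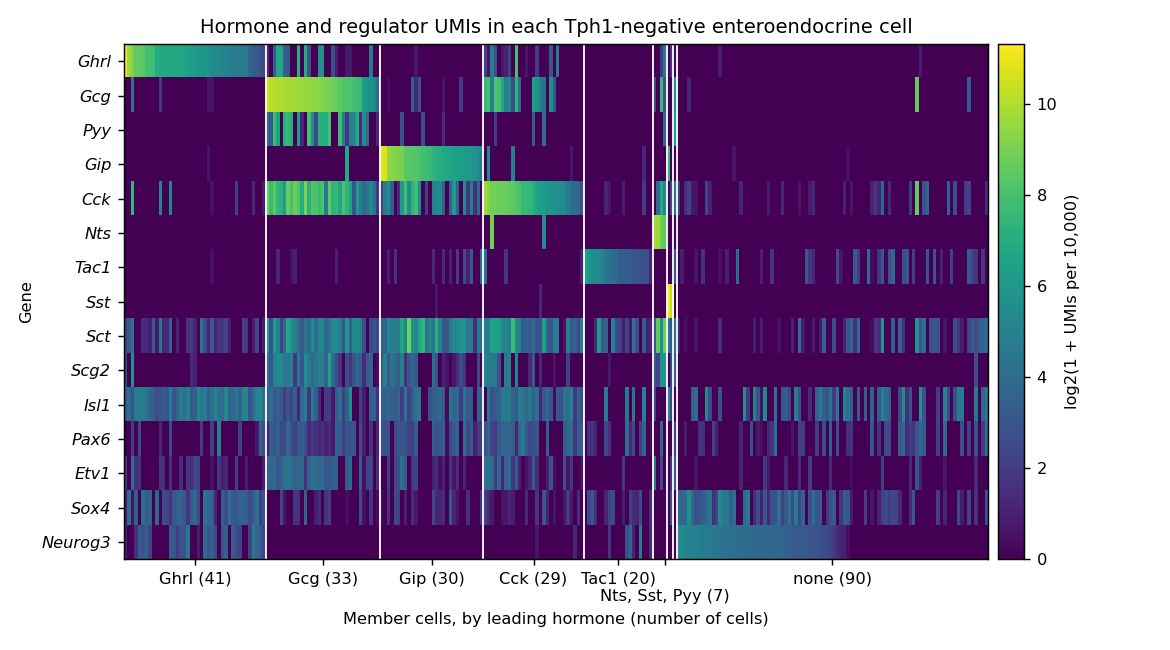
Each column is 1 of the 250 members, grouped by leading hormone with the number of cells in brackets, and each row is a gene; colour gives log2(1 + UMIs per 10000). Gcg-led cells also carry Cck and Pyy, and Isl1 appears in Ghrl-, Cck-, Gip- and Gcg-led cells. The left side of the group with no leading hormone, ordered by Neurog3, carries Neurog3 and Sox4.

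The upstream sequences of 3 hormone genes that led separate groups of cells are shown because NeuroD1 and Neurog3, factors that define this lineage, bind E-boxes. They run from 250 bases before to 50 after the RefSeq start, 5′ to 3′ on the gene's strand (build GRCm38.p6), and capitals mark CANNTG, which reads the same on both strands. Gcg lies on the minus strand at chr2:62483604-62483903, Cck on the minus strand at chr9:121495645-121495944 and Gip on the plus strand at chr11:96024295-96024594.
Gcg: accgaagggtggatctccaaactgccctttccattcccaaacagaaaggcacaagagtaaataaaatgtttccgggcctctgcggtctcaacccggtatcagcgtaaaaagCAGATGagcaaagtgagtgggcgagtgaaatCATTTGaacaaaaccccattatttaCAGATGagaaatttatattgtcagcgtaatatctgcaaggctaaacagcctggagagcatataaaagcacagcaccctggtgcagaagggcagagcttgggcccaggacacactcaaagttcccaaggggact
Cck: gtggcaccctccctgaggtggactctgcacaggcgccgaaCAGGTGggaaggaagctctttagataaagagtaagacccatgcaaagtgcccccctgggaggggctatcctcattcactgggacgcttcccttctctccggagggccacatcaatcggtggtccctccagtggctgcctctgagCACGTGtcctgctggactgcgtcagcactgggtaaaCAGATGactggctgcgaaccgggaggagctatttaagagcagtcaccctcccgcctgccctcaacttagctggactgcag
Gip: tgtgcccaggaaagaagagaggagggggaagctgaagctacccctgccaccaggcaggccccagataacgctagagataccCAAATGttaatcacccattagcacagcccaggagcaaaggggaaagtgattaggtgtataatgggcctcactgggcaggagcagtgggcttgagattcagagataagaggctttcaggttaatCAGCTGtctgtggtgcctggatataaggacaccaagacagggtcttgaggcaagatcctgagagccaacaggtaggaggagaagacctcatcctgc
Gcg and Cck had 3 matches each, as many as 17.6% of 32851 promoters of this length or more, and Gip had 2, as 39.6% did. At least 1 match was found in 72.3% of promoters.

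The 25 genes with the highest ratio of members to other kept cells, among genes with at least 50 CPM in members and higher in every library, describe the cells and carry no test. They held 5 hormones (Gcg, Pyy, Cck, Gip and Ghrl), the granule genes Scg2, Scg3, Chgb, Cpe, Pcsk1n and Resp18, and Scgn, which encodes a calcium-binding protein. Transcription factors such as Isl1, Etv1, Pax6 and Fev and the receptor Ffar1 were also among them. Chgb, Cpe, Isl1 and Fev are rule genes, so their high ratio follows from the choice of members. Scg2 averaged 522 CPM in members and 0.28 CPM in other kept cells, and Etv1 326 CPM and 0.36 CPM. Nefl, a neurofilament subunit, averaged 56.9 CPM against 0.0514 CPM, and Peg3, an imprinted zinc finger gene, 291 CPM against 0.489 CPM. Of the 25, 5 were higher in Tph1-positive cells than in members. Chgb averaged 35976 CPM there, Hmgn3 844 against 605 CPM in members, Fev 360 against 231 CPM, Resp18 224 against 84.2 CPM and Pcsk1n 83.2 against 57.8 CPM. Peg3 and Scg3 were at 219 and 146 CPM in Tph1-positive cells, and Scg2 at 3.27 CPM.

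Hormone levels varied widely between libraries of the same genotype. Gcg was at 3349, 26298 and 11665 CPM in the Fpr2f/f members and at 5793, 11074 and 18285 CPM in the Fpr2VKO members. Cck was at 4935, 13006 and 2899 CPM and at 3158, 10946 and 7347 CPM. The groups overlapped for both genes, and the Fpr2f/f values alone differed several fold. Ghrl was at 2748, 1928 and 11222 CPM against 1703, 3810 and 839 CPM. Gip ran from 439 to 4554 CPM in Fpr2f/f, and from 1623 CPM to 16782 CPM, reached in library 1, in Fpr2VKO. Few cells carried much of these sums. The Gip UMIs of Fpr2f/f library 3, 211 in all, came from 1 cell. In Fpr2f/f library 3, 1 cell held 92.3% of the Ghrl UMIs, and without it Ghrl was at 897 CPM. In Fpr2VKO library 1, 2 cells held 86.1% of the Gip UMIs and 1 cell 88.7% of the Gcg UMIs, and without them Gip was at 2620 CPM and Gcg at 725 CPM. Pyy, which slows gastric emptying, ranged from 336 to 3182 CPM and from 426 to 1574 CPM.

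Nts and Sst were found in the fewest cells of the 8 hormones that led any member. Nts had UMIs in 6 members, and the 2 Cck-led cells among them held 63.0% of its UMIs. Both Sst-led cells were in Fpr2f/f, 1 in library 2 and 1 in library 3, and held 99.8% of Sst UMIs in members. Pyy had UMIs in 34 members, 26 of them Gcg-led. No member was led by Insl5, Gal, Ucn3 or Penk.

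**Figure D2:**
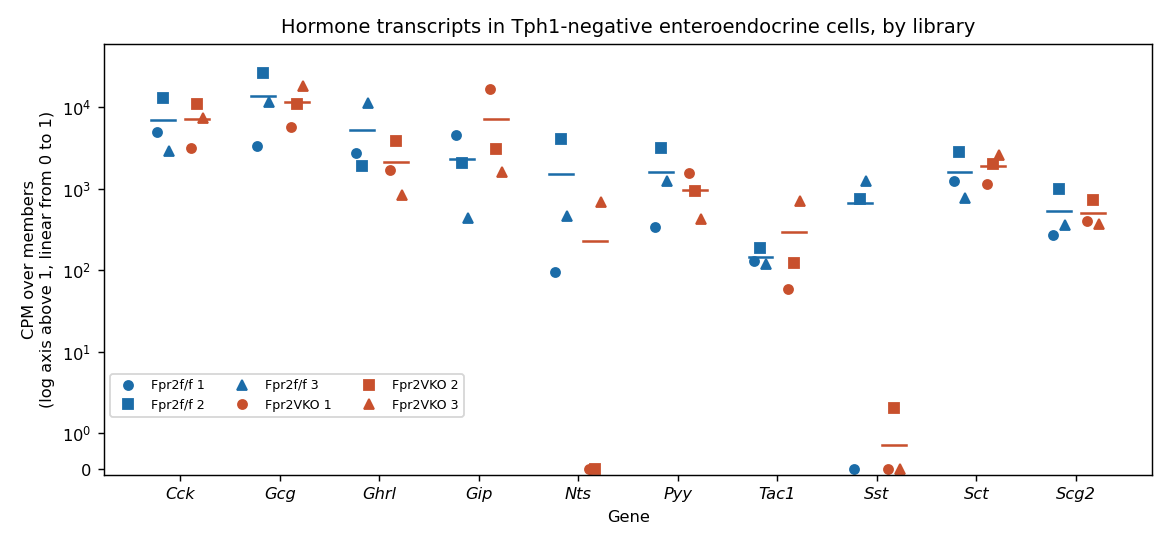
CPM of 8 hormones, secretin (Sct, a rule gene) and secretogranin II (Scg2), summed over members in each library (points; blue Fpr2f/f, orange Fpr2VKO) with the group mean (line), on an axis that is linear from 0 to 1 and logarithmic above. The genotypes overlap for each gene shown, and Nts and Sst are at 0 in some libraries.

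In pooled counts the hormone groups differed in the levels of companion genes, and several of these genes were found in more than 1 group. The levels are given as a description because the hormones are measured in the same cells. Gcg-led cells all had Cck UMIs (33 of 33; 17834 CPM), and 26 had Pyy (6994 CPM). The transcription factor Etv1 was at 1007 CPM in them, 487 CPM in Cck-led, 156 CPM in Gip-led, 148 CPM in Ghrl-led and 12.9 CPM in Tac1-led cells. Without Fpr2VKO library 2 it was 77.0 CPM in Ghrl-led and 0 in Tac1-led cells. By library, Etv1 ran from 547 to 1339 CPM in Gcg-led cells (2 to 10 cells a library) and from 173 to 1077 CPM in Cck-led cells (1 to 9), and these ranges overlapped. In Gcg-led cells the fatty acid receptor Ffar1 stood at 227 CPM and the lipid-amide receptor Gpr119 at 122 CPM. Ffar1 was at 151 CPM in Cck-led, 66.3 CPM in Gip-led and 17.7 CPM in Ghrl-led cells (5.92 CPM without Fpr2VKO library 2). It was at 0 in Tac1-led cells. Gpr119 was at 63.7 CPM in Gip-led, 37.7 CPM in Cck-led (8.59 CPM without Fpr2VKO library 2), 21.4 CPM in Tac1-led and 6.65 CPM in Ghrl-led cells. Cck-led cells had Gcg UMIs in 17 of 29 cells (4558 CPM). Gip-led cells had the duodenal factor Pdx1 in 9 of 30 cells (61.2 CPM) and the cannabinoid receptor Cnr1 in 17 (204 CPM). Pdx1 was at 21.4 CPM in Tac1-led and 17.6 CPM in Cck-led cells, and at 0 in Ghrl-led and Gcg-led cells. In members with no leading hormone and Neurog3 at 0 it was at 23.4 CPM.

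Isl1, a rule gene, was found in all 41 Ghrl-led cells, against 4 of 20 Tac1-led cells. Its pooled level was 1836 CPM in Ghrl-led and 510 CPM in Tac1-led cells. In Cck-, Gip- and Gcg-led cells it was 1321, 1028 and 758 CPM. Mboat4, the enzyme that acylates ghrelin, was found in 30 of the 41 Ghrl-led cells (372 CPM). Neurog3 was present in 27 of the 41 (543 CPM), in 6 of 20 Tac1-led cells and 2 of 29 Cck-led cells, and in none of the Gcg-led or Gip-led cells. In Tac1-led cells it was at 330 CPM, and at 104 CPM without Fpr2f/f library 2, where 2 cells held 58 UMIs. Chgb was at 219 CPM in Ghrl-led cells (142 CPM without Fpr2VKO library 2) and at 6428, 9667 and 16991 CPM in Gcg-, Gip- and Tac1-led cells. As Isl1 and Chgb are rule genes, these contrasts depend in part on how members were chosen.

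Tac1-led cells without Tph1 had UMIs of some genes typical of enterochromaffin cells, in part from 1 library. Lmx1a, a regulator of that fate, was found in 9 of 20 cells (98.6 CPM, against 625 CPM in Tph1-positive cells). Trpa1, an irritant-sensing channel, was at 42.9 CPM against 524 CPM, and Reg4 at 788 CPM against 7192 CPM, but without Fpr2f/f library 2 Trpa1 was at 16.4 CPM and Reg4 at 5.48 CPM in the Tac1-led cells. Tac1 itself was at 1710 CPM in them, or 978 CPM without Fpr2VKO library 3, and 6461 CPM in Tph1-positive cells.

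The 90 members with no leading hormone divided by Neurog3, which had a UMI in 50 of them. Those 50 cells had Neurog3 at 1520 CPM, and a level above 0 follows from this split. In them the zinc finger factor Insm1 was at 1631 CPM, Sox4, a progenitor factor, at 1097 CPM and Pax4, a fate regulator, at 177 CPM. In the 40 cells with Neurog3 at 0, Insm1 was at 645 CPM, Sox4 at 167 CPM and Pax4 at 73.5 CPM. The second set was shallower, with a median of 4838.5 UMIs against 10823, and the part of depth in these values was not tested. Over all members, Neurog3 had a UMI in 85 cells (34.0%), against 27.7% of Tph1-positive and 1.43% of other kept cells. After thinning to 1000 UMIs these shares were 20.4%, 11.3% and 0.525%.

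**Figure D3:**
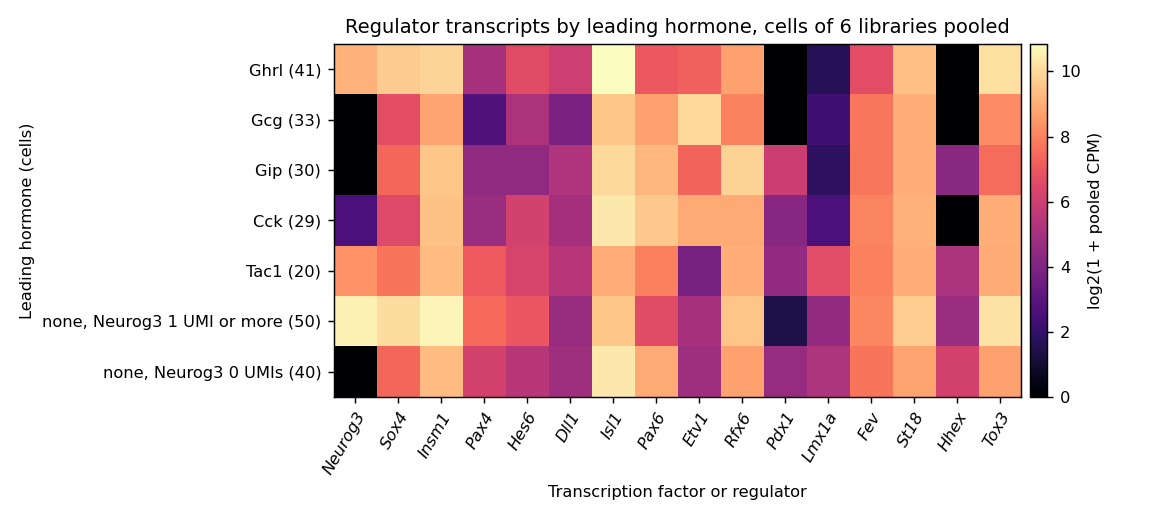
Pooled CPM of regulators (columns) in groups of members by leading hormone (rows, cells in brackets), as log2(1 + CPM). The 2 rows with no leading hormone were split by Neurog3, so their Neurog3 levels follow in part from that choice. Neurog3 is at 543 CPM in the Ghrl row, at 330 CPM in the Tac1 row (104 CPM without Fpr2f/f library 2) and 0 in the Gcg and Gip rows. Etv1 is at 1007 CPM in the Gcg row and 487 CPM in the Cck row.

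The members were next set beside Tph1-positive enteroendocrine cells of the same libraries. Tph1 chose both groups, so the contrast is described without p-values. In edgeR's quasi-likelihood fit with library as a block, 1513 of 8854 genes (17.1%) had a Benjamini-Hochberg adjusted p under 0.05, 567 (6.4%) higher and 946 (10.7%) lower in members, and nothing is read from this count. Without Fpr2VKO library 1 it was 1103, and with DESeq2 it was 981.

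Peptide hormones lay on both sides of this contrast. Of 19 listed, 11 that were not rule genes passed the filter on low counts, and 7 had positive and 4 negative differences (median 8.53). Gip averaged 4753 CPM in members and 1.80 CPM in Tph1-positive cells, a log2 difference of 10.94 ± 0.63 (SE, 6 libraries). Pyy differed by 10.63 ± 0.25, and Ghrl by 8.53 ± 0.80. Cck (5.18) was also higher, as were Nts (11.36) and Sst (9.13), which rest on few cells. Nts had 0 UMIs in members of Fpr2VKO libraries 1 and 2. Sst had 0 in those of Fpr2f/f library 1 and Fpr2VKO libraries 1 and 3. Gcg differed by 9.45 ± 1.81, with 1286 CPM in the Tph1-positive cells of Fpr2VKO library 2 and 0 to 4.84 CPM in the other 5. The 4 lower genes were Tac1 (-5.27), Ucn3 (-4.29), Iapp (-1.95) and Vgf (-1.47).

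Other genes among the 10 largest positive differences, counted over genes with at least 20 CPM and higher in members of all 6 libraries, had varied roles. Scg2, a granule protein, averaged 522 against 3.27 CPM. Mboat4 averaged 89.5 against 1.37 CPM and Cnr1 44.1 against 0.493 CPM. Zcchc12, Ooep and Fstl4 differed by 6.94, 6.87 and 5.86 on the log2 scale.

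Genes typical of enterochromaffin cells were on the other side. All 9 measured outside the rule had negative differences (median log2 difference -5.08, against 0.01 over all tested genes). Slc18a1, the vesicular monoamine transporter of these cells, differed by -2.64, Lmx1a by -5.08, Trpa1 by -5.88 and Reg4 by -6.07. Ddc, the decarboxylase that makes serotonin and other amines, was nearer, at 933, 892 and 992 CPM in Fpr2f/f members and 1235, 843 and 1175 CPM in Fpr2VKO members against a mean of 1470 CPM. Among the 10 with the largest negative differences, Pappa2, a protease, had 0 UMIs in members of every library and 54.9 to 225 CPM in Tph1-positive cells. Gabra2, a GABA receptor subunit, was likewise at 0 in members, and Slc18a2, the second vesicular monoamine transporter, averaged 0.884 against 99.3 CPM. The rest were Pcdh9, 1810006J02Rik, Zfp804a, Afp, Tpbg, Reg4 and Nrg1, between -6.65 and -6.02.

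Transcription factors split both ways. Of 20 measured outside the rule, 13 had positive and 7 negative differences (median 0.52, against 0.01 over all tested genes). Etv1 averaged 326 against 37.0 CPM (log2 difference 3.28 ± 0.57). Onecut3 (3.90), Hhex (3.20), Pax6 (1.75), Tox3 (1.34), Neurod2 (1.00), Sox4 (0.95) and St18 (0.62) were also positive. Mnx1 (-3.19), Lmx1a (-5.08) and Foxa1 (-0.86) were negative, and Nkx2-2, an early lineage factor, averaged 338 CPM in members against 331 CPM and differed by 0.00 ± 0.13.

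Granule and sensing genes also parted. In the list of granule and peptide processing genes, 8 had positive and 17 negative differences of 25 measured outside the rule (median -0.36). Pcsk1, the convertase that releases GLP-1 and GIP from their precursors, was lower (-1.45 ± 0.12). Scgn, the calcium-binding protein secretagogin, was higher (5.03 ± 0.18). Of 12 sensing genes measured, 7 had positive and 5 negative differences (median 1.10). The positive ones included Abcc8, the sulphonylurea receptor (5.33), Gpr119 (5.29), Ffar1 (4.46), Galr1 (2.62), Slc5a1, the sodium-glucose carrier (2.53), and Ffar4 (2.20), and the negative ones included the propionate receptor Ffar2 (-0.72). The calcium channel gene Cacna1c was higher (2.32) and the sodium channel gene Scn3a lower (-2.94).

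**Figure D4:**
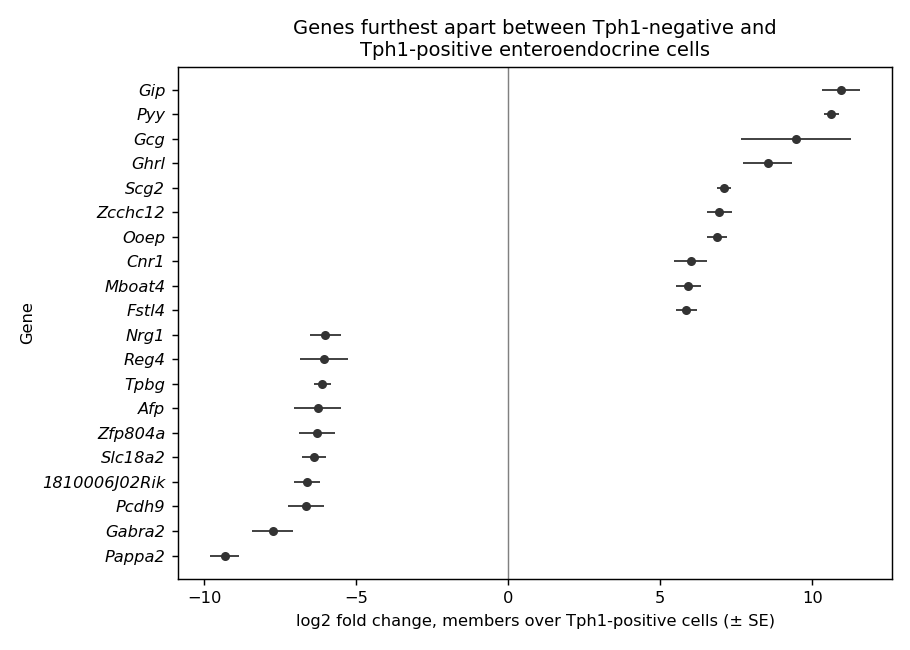
Log2 fold change (± SE) from edgeR with library as a block, members against Tph1-positive enteroendocrine cells. Shown are the 10 genes with the largest differences on each side, among genes with at least 20 CPM and no library in the opposite direction. Gabra2 in Fpr2f/f library 3 and Pcdh9 in Fpr2VKO library 3 were at 0 in both sets of cells. Positive values are higher in members. Hormone genes lead the positive side, with Gip at 10.94, and Pappa2 the negative side, at -9.33.

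The share of members did not differ detectably between genotypes. Members were 2.31%, 1.04% and 1.23% of kept cells in Fpr2f/f (1.53% ± 0.68, SD, n = 3) and 1.68%, 1.59% and 1.23% in Fpr2VKO (1.5% ± 0.24, n = 3), and the groups overlapped. The difference was -0.03 percentage points (two-sided exact permutation p = 0.9, where 0.1 is the smallest that 3 against 3 allows), and it was 0.36 without Fpr2f/f library 1. As a fraction of all cells that met the enteroendocrine limits, members were 45.5%, 42.6% and 67.3% with Fpr2 intact against 45.2%, 51.8% and 42.6% in Fpr2VKO, and the groups overlapped (exact permutation p = 0.6).

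The genotypes overlapped in each of 6 shares by leading hormone. Ghrl-led cells were 19.7%, 4.08% and 17.1% of members in Fpr2f/f and 21.1%, 25% and 8.70% in Fpr2VKO. Gcg-led cells were 3.28%, 20.4% and 20% against 7.89%, 11.4% and 26.1%, and members with no leading hormone 42.6%, 30.6% and 42.9% against 44.7%, 25% and 26.1%. Tac1-led cells were 6.56%, 12.2% and 8.57% against 5.26%, 6.82% and 8.70%. With scored doublets removed, the Tac1 shares were 9.41% ± 3.02 and 5.66% ± 1.05 and did not overlap, and after thinning to 1000 UMIs, with at least 1 UMI of the hormone, they were 14.4% ± 0.27 and 9.56% ± 3.26 without overlap (SD, n = 3; exact permutation p = 0.1 for both, the smallest possible). Exact permutation p-values over the 6 shares as first defined (Ghrl, Gcg, Gip, Cck, Tac1 and none) were 0.4 to 1. With 23 to 61 members per library, these shares could not show a moderate shift. Kept cells had median UMIs of 3033, 4602 and 4612 in Fpr2f/f and 6358, 6728.5 and 6686.5 in Fpr2VKO, without overlap. The median UMIs of members averaged 8284 in Fpr2f/f and 12551 in Fpr2VKO, with overlap. The limits of 5 UMIs and of Tph1 at 0 both depend on depth. The part of depth in the genotype differences of shares was not tested.

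Between genotypes, 1 of 7020 genes tested in members passed (0.0142%), and it was higher in Fpr2VKO. This gene, Mt1 (chr8:94179082-94180327, GRCm38), encodes metallothionein 1, a small protein that binds zinc and copper. It was at 102, 96.1 and 171 CPM in Fpr2f/f members and at 839, 813 and 861 CPM in Fpr2VKO members. The groups did not overlap, and the log2 fold change was 2.74 ± 0.22 (SE; edgeR quasi-likelihood adjusted p = 9.0e-09). An unadjusted edgeR p under 0.05 was reached by 329 of the 7020 genes, and nothing is read from this count. DESeq2 also called 1 gene.

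Mt1 UMIs were found in 19 of 61, 18 of 49 and 15 of 35 Fpr2f/f members and in 38 of 38, 44 of 44 and 22 of 23 Fpr2VKO members. After thinning to 1000 UMIs per cell the shares were 13.1% ± 3.72 and 53.9% ± 2.56 (SD, n = 3 libraries). The same order held outside the members. In other kept cells Mt1 was at 296, 246 and 365 CPM in Fpr2f/f and at 1117, 1110 and 1175 CPM in Fpr2VKO. In barcodes under 100 UMIs, which hold mostly free RNA, it was at 148, 161 and 236 CPM in Fpr2f/f and at 865, 934 and 1111 CPM in Fpr2VKO. The members' Mt1 level was 59.6% to 97.0% of this free level, whereas for Defa24, a Paneth cell defensin, it was 4.13% to 9.13% in 5 libraries and 106% in Fpr2VKO library 1. The range was 4.73% to 180% for the Paneth gene Lyz1, 12.5% to 198% for the stem gene Olfm4, 6.95% to 48.2% for the antimicrobial lectin gene Reg3g, 2.26% to 36.3% for the enterocyte gene Apoa1 and 0% to 35.0% for Fabp1, another enterocyte gene. Without the cell with the most UMIs of the gene in each library, the highest ratio was 47.8% for Defa24, 76.9% for Lyz1, 112% for Olfm4, 29.8% for Reg3g, 31.8% for Apoa1 and 21.9% for Fabp1, and Mt1 ran from 42.1% to 91.4%. The part of free RNA in the members' Mt1 was not tested. Mt2, the neighbouring metallothionein gene, was at 6.55, 7.21 and 39.5 CPM against 18.6, 4.05 and 22.4 CPM, and the groups overlapped. These levels rest on 4, 3 and 19 UMIs in Fpr2f/f members and 11, 2 and 7 UMIs in Fpr2VKO members. Mt2 was not among the genes tested between genotypes.

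The Mt1 promoter is shown because metal-responsive elements with the core TGCNCNC, bound by Mtf1, are known in metallothionein genes. Capitals mark this core, searched on both strands, in chr8:94178839-94179138 on the plus strand (RefSeq, GRCm38.p6).
Mt1: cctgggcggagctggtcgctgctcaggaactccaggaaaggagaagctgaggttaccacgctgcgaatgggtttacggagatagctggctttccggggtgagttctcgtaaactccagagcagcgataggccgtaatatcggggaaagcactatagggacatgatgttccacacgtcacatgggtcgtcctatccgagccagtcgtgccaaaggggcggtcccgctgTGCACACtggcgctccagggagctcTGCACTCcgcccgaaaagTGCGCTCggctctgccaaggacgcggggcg
It held 3 matches, as many as 7.1% of promoters or more, and 51.0% of promoters held at least 1. The Mt2 promoter held 6, as many as 0.225% of promoters or more. The part of these elements in the levels of either gene was not tested. Mtf1 was at 31.1, 50.5 and 43.7 CPM in Fpr2f/f members and 32.2, 32.4 and 6.40 CPM in Fpr2VKO members and did not pass the test.

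**Figure D5:**
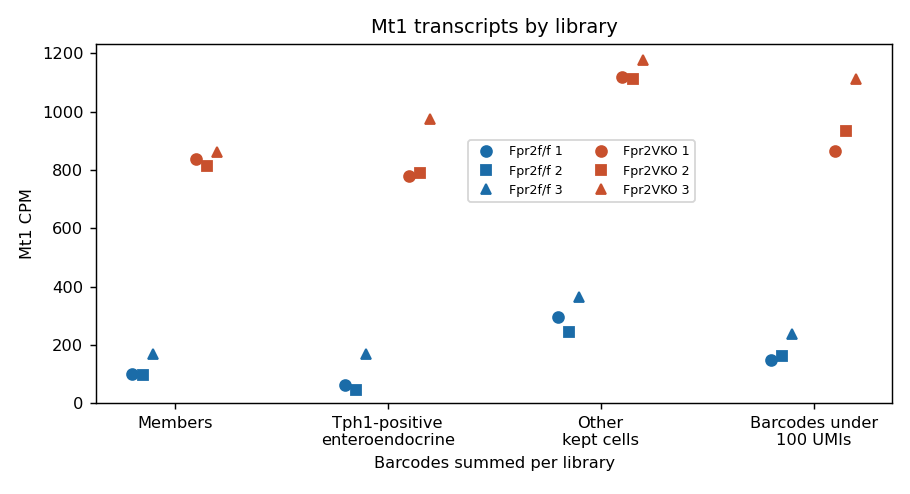
Mt1 CPM per library (points; blue Fpr2f/f, orange Fpr2VKO) in members, Tph1-positive enteroendocrine cells, other kept cells and barcodes under 100 UMIs. In each of the 4 sets the Fpr2VKO libraries lie above the Fpr2f/f libraries, in members at 813 to 861 CPM against 96.1 to 171 CPM.

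No other gene passed. Asxl3, a Polycomb-associated gene, was at 9.82, 14.4 and 12.5 CPM in Fpr2f/f and 47.4, 58.8 and 51.2 CPM in Fpr2VKO (log2 2.07 ± 0.40, edgeR adjusted p = 0.0837), and it passed in 3 of 18 alternatives. The next, at adjusted p = 0.419 in edgeR, had Fpr2VKO values above Fpr2f/f values in every library for Rhobtb3 (1.02), Tmem163 (1.48), Pik3r3, a regulatory subunit of PI3-kinase (0.94), and Gatm, which starts creatine synthesis (1.90). Values lay below those of every Fpr2f/f library for Klk1, a tissue kallikrein (-1.65), Lypd8, a secreted antibacterial protein (-0.98), Rgs2, which shortens G-protein signals (-1.10), Erh (-1.27) and Rps29 (-0.64). Gatm, Klk1, Lypd8 and Pik3r3 also passed in 3 of 18 alternatives, Rgs2, Rhobtb3, Rps29 and Tmem163 in 1, and Erh in 0. Without the members that held 1% of UMIs or more in markers of another class, Klk1 was at -0.16 and Lypd8 at -0.36. Without Fpr2f/f library 1 the count of genes that passed was 12, and without Fpr2VKO library 2 it was 3. It was 17 with no filter on low counts and 18 with the replicate number as a block.

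Hormone genes gave no call. Of 19 listed, 7 outside the rule passed the filter, all with adjusted p of at least 0.996 in edgeR, and their median log2 fold change was -0.30 against -0.01 over all tested genes. Individual errors were large, as for Gcg (-0.30 ± 0.93), Ghrl (-1.37 ± 0.98) and Gip (1.61 ± 1.35), so changes of several fold could not be seen. Without Fpr2VKO library 1 Gip was at -0.06 and Gcg at 0.01, and Gcg was at 0.63 without Fpr2f/f library 2. Of 18 transcription factors tested outside the rule none passed, with a median of 0.12. Neurog3 was at 449, 322 and 661 CPM and at 627, 138 and 195 CPM, and the groups overlapped. Pax4 was at 88.4, 76.9 and 79.0 CPM against 67.8, 36.5 and 35.2 CPM (-0.79 ± 0.31), without overlap, and did not pass (edgeR adjusted p = 0.98).

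The other lists were similar. None of 22 granule genes, 7 enterochromaffin genes, 9 sensing genes, 10 excitability genes, 10 genes of secretory progenitors and Notch signalling, 16 Wnt and stem genes, 8 cycling genes, 7 interferon and antigen presentation genes or 12 stress genes passed, and their medians lay between -0.22 and 0.18. The same held for 5 stem markers (median 0.46) and 7 enterocyte markers (0.01), and no tuft or lymphocyte marker passed the filter. Each of these counts holds only genes that passed the filter on low counts. They were 10 of 20 listed for secretory progenitors and Notch signalling, 9 of 28 for sensing and 7 of 20 for interferon and antigen presentation. Jag2, Dll3 and Notch3 were not among the genes tested. Each had 0 to 3 UMIs in the members of any library. The study reports a decrease of these Notch genes in knockout enteroendocrine cells, which was not tested here. All 10 Paneth markers were above 0 (median 1.68) and all 6 tested goblet markers below 0 (median -3.54), and none passed. A single Fpr2VKO library 1 member held 57.2% of that library's Paneth UMIs in members, and 1 Fpr2f/f library 3 member 91.0% of its goblet UMIs.

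A last comparison asked whether the genotype difference in members departed from that in other kept cells of the same libraries. It did so for 28 of 16264 genes (0.172%), 10 more positive (0.0615%) and 18 more negative (0.111%) in members. Of the lists, Wnt and stem genes gave 1 call of 17 (Cd44, 0.85), enterocyte markers 1 of 12 (Anpep) and metallothionein and zinc genes 1 of 7 (Mt1), and no other list gave one.

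Fabp5, a fatty acid binding protein, was at 1523, 1195 and 322 CPM in Fpr2f/f members and 2443, 1966 and 1911 CPM in Fpr2VKO members, and at 10.3 to 24.4 CPM in other kept cells of all 6 libraries. Its difference of differences was 1.22 ± 0.18 (log2, edgeR adjusted p = 2.38e-07). The fit shares spread over genes and both cell classes. Its SE and p-values therefore do not measure the spread of a single gene between libraries, here or for the other genes. Plcxd3, a phospholipase-domain gene, went from 147, 166 and 60.3 CPM to 234, 227 and 327 CPM (1.64 ± 0.29, adjusted p = 0.000135 in edgeR), against 1.46 to 2.67 CPM in other kept cells. Both passed in all 12 alternatives. Cdkn1c, an inhibitor of cyclin-dependent kinases, was at 616, 341 and 206 CPM and at 776, 792 and 391 CPM (1.32 ± 0.23) and passed in 10 of 12, not without Fpr2f/f library 3 (1.16) or with at least 2000 UMIs (1.25). Within members alone the genotypes did not overlap for Fabp5 and overlapped for Cdkn1c, and neither passed there (edgeR adjusted p = 0.996 for both).

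On the negative side, Rgs2 was at 98.2, 147 and 116 CPM in Fpr2f/f members and 37.3, 68.9 and 70.4 CPM in Fpr2VKO members (-1.48 ± 0.29), and Lypd8 at 282, 315 and 295 CPM and 127, 229 and 106 CPM (-1.29 ± 0.19). Slc12a8 (-1.55), Klk1 (-1.59) and Pde3a, a cyclic nucleotide phosphodiesterase (-1.34), differed in the same direction. Over the 6 libraries Lypd8 averaged 226 CPM in members against 1184 CPM in other kept cells. Klk1 (52.9 against 71.4 CPM), Slc12a8 (53.2 against 74.3 CPM) and Pde3a (52.6 against 131 CPM) were also lower in members. Rgs2 was higher in members (89.7 against 41.1 CPM). The part of free RNA in these levels was not tested. Goblet markers reached 1% of UMIs in 7 members of Fpr2f/f library 2, 2 of Fpr2f/f library 3, none of Fpr2f/f library 1 and 3 in Fpr2VKO, and 1 cell held 91.0% of the goblet UMIs of members in Fpr2f/f library 3. Without the members that held 1% of UMIs or more in markers of another class, 12 of the 28 genes passed, Fabp5, Plcxd3, Cdkn1c and Rgs2 among them and Lypd8, Klk1, Slc12a8 and Mt1 not. Of these 4, Klk1 went to -0.19 and Lypd8 to -0.62, while Slc12a8 was at -1.30 and Mt1 at 0.71, against -1.55 and 0.79 with all members. Rgs2 did not pass without Fpr2VKO library 1 (-1.01). The count was 15 without Fpr2VKO library 2 and 18 without Fpr2VKO library 3.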

How the data were processed

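UMI counts per gene and barcode were deposited by the authors for 6 libraries made on the MobiNova-100 platform, processed with MobiVision and aligned to mm10; the barcode lists are unfiltered, and Seurat 4.0 is named in the submitters' processing notes. The members and gene lists were chosen with earlier results of these data known. Counts were summed over cells of a class per library and tested with edgeR 4.0.16 in R 4.3.3 (TMM, filterByExpr, robust quasi-likelihood, Benjamini-Hochberg, threshold 0.05). A fold change is given with SE = |log2 fold change| divided by the square root of F. The study compared cells one by one, and library sums were tested here in its place. Shares were compared with two-sided exact permutation tests over libraries, whose smallest p is 0.1. Wilson intervals came from SciPy 1.17.1. Intervals and floors of 3 counts cover counting error only. Doublet scores came from simulated doublets among 30 nearest neighbours in scikit-learn 1.9.0, and the highest 0.8% per 1000 kept cells were retained in the main results and removed as an alternative. For shares of cells with a UMI across depths, cells were thinned to 1000 UMIs.

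Genes named were those of the rule and lists, Fpr2, Mt1 (known from earlier results) and, per comparison, up to 10 called genes in each direction with the largest fold change, at least 20 CPM and no overlap of the groups (in comparisons within libraries, the same direction in every library). Against Tph1-positive cells, a library with 0 UMIs in both classes was allowed on the negative side, as for Gabra2 and Pcdh9. As only 1 gene was called between genotypes, the 5 higher and 5 lower genes with the smallest p were added. The 25 genes with the highest ratio to other kept cells were described. Individual members of other gene groups and hormone pairs in single cells were chosen after their values were seen. Alternatives were DESeq2 1.42.0 (its size factors and its Wald test), no filter on low counts, the replicate block, other limits on UMIs, mitochondrial share, rule genes and Tph1, a leading hormone from 3 UMIs or from 1 UMI after thinning to 1000, removal of scored doublets, of shared barcodes and of members rich in markers of another class, and omission of each library. The scripts were tested on simulated data. Gene positions are from GENCODE M21 and promoters from RefSeq (GRCm38.p6).

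Whether same-numbered libraries of the 2 genotypes deviated together was checked on summed counts; the labels tie no number to a shared litter or day. Values of some listed genes are not reported here.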

Additional observations from a re-analysis of the deposited data

Results flagged for a closer look

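The genotype difference in members departed from that in other kept cells, by the interaction term in edgeR, for 17 genes that met the naming rule. The difference of log2 differences was positive for Edn1 (1.77), Plcxd3 (1.64), Cdkn1c (1.32), Fabp5 (1.22), Pik3r3 (1.10), Dstn (0.80) and Mt1 (0.79). It was negative for Klk1 (-1.59), Slc12a8 (-1.55), AW112010 (-1.49), Rgs2 (-1.48), Cryl1 (-1.36), Pde3a (-1.34), Lypd8 (-1.29), Anpep (-1.05), S100a10 (-0.85) and Tspan8 (-0.82). Of these, Edn1 was at 13.1, 48.1 and 27.0 CPM in Fpr2f/f members and at 152, 40.5 and 35.2 CPM in Fpr2VKO members, with 1 high library, and its call was lost in 7 of 12 alternatives. The call was lost in 9 of 12 for S100a10, 8 for Tspan8, 6 for Mt1, 5 for AW112010 and Cryl1, 4 for Klk1, 3 for Anpep, Dstn, Pde3a and Pik3r3, 2 for Cdkn1c, 1 for Lypd8, Rgs2 and Slc12a8 and 0 for Fabp5 and Plcxd3. That of Mt1 was lost without any 1 of 5 libraries (each but Fpr2f/f library 3) and without members rich in markers of another class, with values of 0.71 to 0.92 over all 12. The term also holds the genotype difference in other kept cells. As means of log2(CPM + 1), Dstn differed by 0.33 in members and -0.55 in other kept cells. The same 2 values were 0.82 and -0.50 for Cdkn1c, 1.18 and -0.43 for Plcxd3, 1.19 and -0.35 for Edn1, 1.04 and -0.20 for Pik3r3, 1.32 and -0.02 for Fabp5 and 2.81 and 1.92 for Mt1. Of the negative genes, Rgs2 alone averaged higher in members than in other kept cells.

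Outside the main measurement, 238 barcodes with over 20% and up to 40% mitochondrial UMIs met the other limits of the rule.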

How the results depend on the processing

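Mt1 passed between genotypes in members under all 18 alternatives (log2 2.60 to 3.29), and none of the other genes named for their rank in a comparison changed direction. Of the 147 list genes tested between genotypes outside the rule, 81 had the opposite sign in at least 1 alternative, Gcg in 3 (0.06 with the replicate block) and Gip in 1 of 18 among them, and Ghrl, Neurog3 and Pax4 did not. Of these genes 2 passed in at least 1 alternative, Mt1 and the goblet gene Zg16 (1 of 17). The count of genes that passed was 1, and became 17 without a filter on low counts, 2 with at least 2000 UMIs and 1 to 12 without 1 library. For the interaction, the 28 calls became 12 without members rich in markers of another class (an alternative added after the data were seen) and 15 to 39 without 1 library. For members against Tph1-positive cells, the 1513 calls became 981 with DESeq2 and 1103 to 1606 without 1 library. The cause of these moves was not tested.

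Genotype differences in shares, in percentage points, changed direction under at least 1 alternative for the share of members and for those with Ghrl, Gcg, Gip, Cck or no hormone leading; that of Tac1-led cells was below 0 under each alternative run (-5.90 to -0.43). For the share of members, -0.03 became 0.33 at a mitochondrial limit of 10% and ran from -0.27 to 0.36 without 1 library. At the same limit Ghrl-led cells went from 4.62 to -0.00721, Gcg-led cells from 0.55 to -1.51, and Gip-led cells from 3.18 to 13.3. At 40%, Gcg-led cells were at -6.54 and members with no leading hormone at 1.96 in place of -6.76. Without 1 library, the ranges were -0.16 to 9.39 for Ghrl, -5.09 to 4.16 for Gcg, -0.50 to 6.23 for Gip, -0.12 to 7.48 for Cck, -3.48 to -0.64 for Tac1 and -13.2 to -3.29 for none. No exact p in these tests could fall below 0.1.

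With the replicate block 18 genes passed between genotypes in members. Same-numbered libraries correlated in their deviations at 0.0448, 0.0670 and 0.0568, each above the best other number (0.00519, -0.00801 and 0.0179), a hint from the data only, so no pairing was taken. The 3 libraries per genotype and the 23 to 61 members in each limit the precision.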
